A study of Mus musculus with 14 samples.

Results

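The 53 genes described here make and copy the genome in S phase, or mend it by homologous recombination, and they were listed by name and grouped by role. They comprise 17 genes that license and fire replication origins, 18 genes of the polymerases and the replication fork, 5 genes of nucleotide supply and chromatin assembly, 10 genes of homologous and post-replication repair, and 3 genes of G1/S control. Of these, 51 were measured among the 12393 genes on the arrays, each through its brightest probe set over the 14 cultures. The origin helicase subunit Gins2 and the chromatin assembly subunit Chaf1a had no probe set named here and were not analysed here. Of the 51 genes, 29 had more than 1 probe set. Levels are log2 of the deposited intensity and are compared only within a gene, since probe sets differ in brightness.

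All cells were hepatoblasts, the bipotent progenitors of the fetal liver, taken from wild-type mouse embryos at embryonic day 14 and immortalised by clonal plating. There were 7 groups of 2 cultures each. On uncoated plates stood cells with IDH1 R132C and cells with empty vector. On collagen-coated plates stood cells with IDH1 R132C, IDH2 R172K, wild-type IDH1, wild-type IDH2 and empty vector. All constructs were doxycycline-inducible, per the series text, and the protocol gives doxycycline at 25 ng/mL for the IDH1 experiments. Uncoated culture lasted up to 5 days and is the protocol's hepatocyte differentiation assay. How many days each culture ran, from which species the introduced IDH sequences came and whether groups share a starting clone is not given in the sources used here. For all groups the medium held serum, epidermal growth factor, insulin and insulin-like growth factor II.

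Origins are licensed in G1, when the origin recognition complex, Cdc6 and Cdt1 load the Mcm2-7 helicase ring, and they fire in S phase, when the kinases Cdc7 and Cdk2 and the factors Mcm10, Cdc45 and GINS turn that ring into a moving helicase. Polymerase alpha-primase then starts each strand, polymerases epsilon and delta extend the strands on the sliding clamp Pcna, and Fen1 and Lig1 join the pieces. Broken or stalled forks are rebuilt by homologous recombination, in which Brca1 and Brca2 act. Many of these genes are transcribed under E2F factors, which the retinoblastoma proteins hold in check until cyclin-dependent kinases release them, so their messenger RNAs are abundant in dividing cells and scarce in resting ones. Hepatoblasts divide rapidly in the fetal liver, while hepatocytes of the adult liver are mostly quiescent.

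The labelled cell type was checked against its markers. Of 13 hepatoblast markers 12 were measured. The keratins Krt8, Krt18 and Krt19 had group means of log2 13.61 to 14.32, Hnf4a 10.88 to 11.71, Foxa2 11.17 to 11.71 and Afp 9.24 to 11.52, while Dlk1 at 5.20 to 5.50 and Prox1 at 3.03 to 3.26 lay close to or under the arrays' lower quartile of log2 4.72 to 4.80. Replicate cultures correlated at r = 0.994 to 0.998 across genes, lowest for IDH2 R172K, whose replicate 1 had a median over all genes 0.094 below the vector collagen mean on the log2 scale. Each group rests on 2 arrays, and this small number limits how precise any value is.

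Replication and repair genes were lower on uncoated plates than on collagen in both kinds of cell, and on collagen no gene of the 51 passed between the forms of IDH. In R132C cells 44 of the 51 measured genes fell past the threshold on uncoated plates and only Rad52 rose, by limma with a Benjamini-Hochberg adjusted p under 0.05 over all genes, against 12.3% of all genes called lower, 13.6% called higher and 25.9% called in all. In vector cells 48 fell and Rad52 rose, against 14.2% of all genes called lower, 15.1% called higher and 29.3% called in all. The median difference was -0.77 in R132C cells, a 1.70-fold lower level, and -0.98 in vector cells, 1.97-fold lower, beside medians over all genes of -0.028 and -0.020. In R132C cells 14 of the genes fell at least 2-fold, out of 205 genes on the array that passed with such a fall, and in vector cells 24 did, out of 346.

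**Figure D1:**
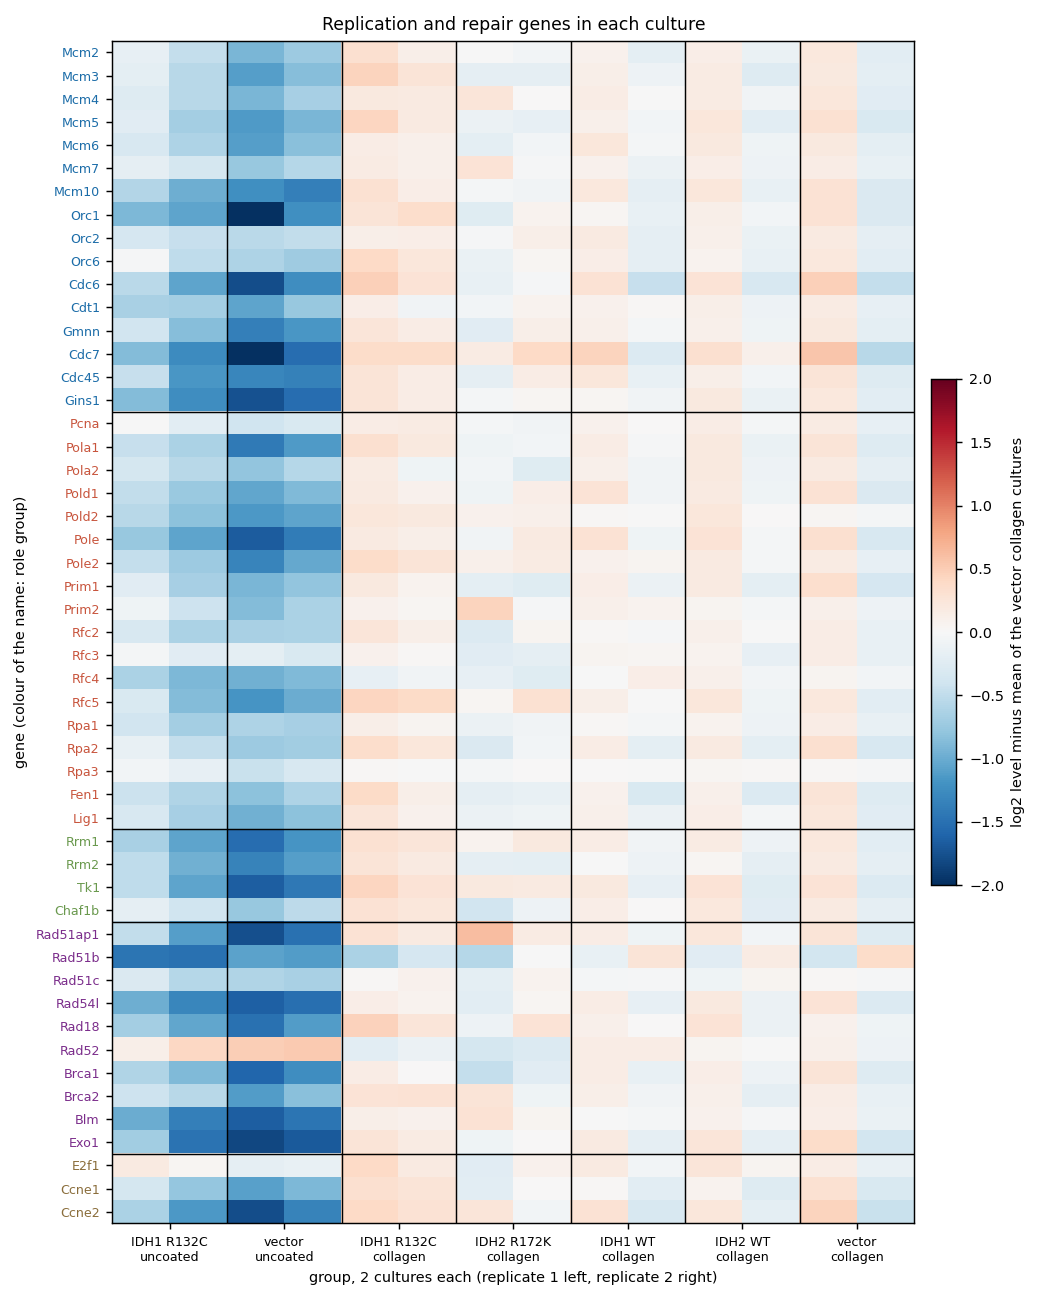
Level of each of 51 replication and repair genes (rows, coloured by role) in each of 14 cultures (columns, 7 groups of 2), as the log2 difference from the mean of the vector collagen cultures. The 4 uncoated cultures on the left are blue for nearly every gene except Rad52, deepest in the vector cultures, and the 10 collagen cultures are pale.

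Set against the mean of the vector collagen cultures, the median over the 51 genes stood at -0.42 and -0.68 in the R132C uncoated cultures and at -1.10 and -0.88 in the vector uncoated cultures. The collagen medians were 0.25 and 0.14 with R132C, -0.097 and 0.0078 with R172K, 0.11 and -0.071 with wild-type IDH1, 0.16 and -0.10 with wild-type IDH2 and 0.21 and -0.21 with vector. The uncoated cultures lay below all 10 collagen cultures, and the R132C uncoated cultures lay above the vector uncoated ones. The medians over all genes ranged from -0.094 to 0.012 in the same cultures. Of the vector collagen cultures, replicate 1 was the higher for every one of the genes except Rad51b. In bulk RNA, fewer dividing cells and less RNA of these genes per cell cannot be told apart.

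The 44 genes that fell in R132C cells all fell in vector cells too, where they made up 44 of 48. The 4 that passed in vector cells alone were Pcna, Prim1, Prim2 and Rpa3. These plate comparisons share no array, but the variance of each gene was estimated jointly for both. For 50 of the 51 genes both uncoated cultures lay below both collagen cultures, in R132C cells, where 35.2% of all genes did, and in vector cells, where 34.4% did. For Rad52 both uncoated cultures lay above both collagen cultures, as they did for 30.5% of all genes in R132C cells and 30.6% in vector cells.

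**Figure D2:**
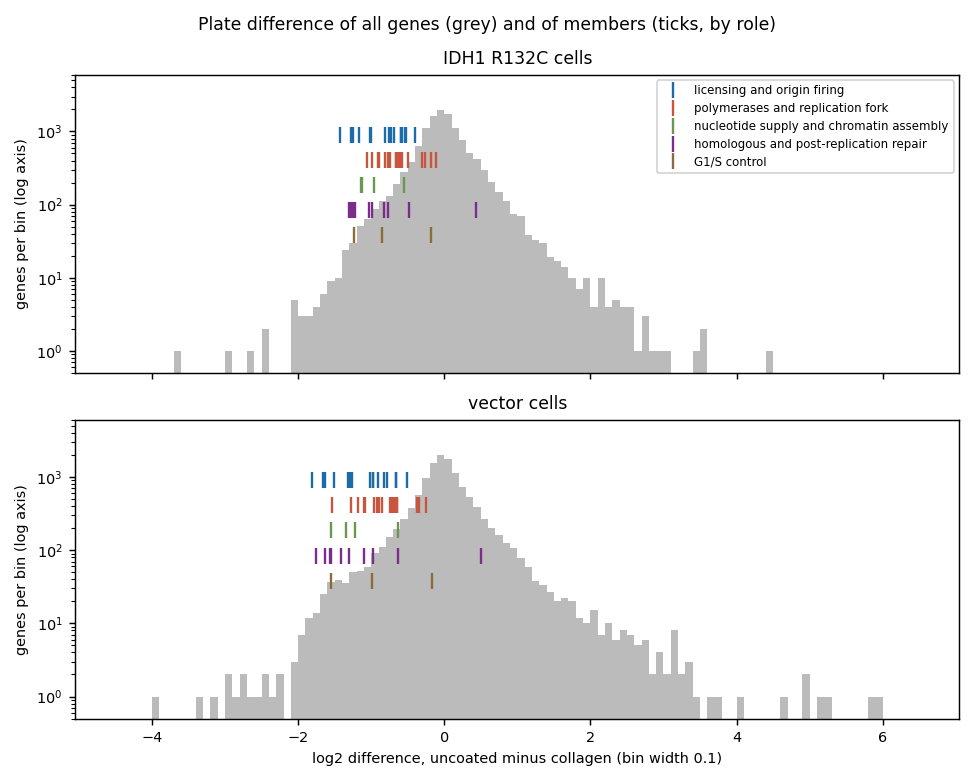
Histogram of the log2 difference uncoated minus collagen for all 12393 genes (grey, log axis of genes per bin), with each replication or repair gene as a tick coloured by role, in IDH1 R132C cells (top) and vector cells (bottom). The ticks lie left of the centre in both panels, with 1 repair gene, Rad52, on the right.

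Sequence before the start of these genes was read from RefSeq (GRCm38.p6) for the 43 of 51 genes whose window of 250 bases before to 50 bases after the start was given. Letters of the E2F motif (TTTCCCGC, or with other middle letters TTTGGCGC, or else TTTCGCGC, or finally TTTGCCGC) stood on either strand in 14 of the 43 windows (32.6%), beside 4.07% of the 9887 array genes with a window and 2.61% of all 27025 windows. CCAAT stood in 25 (58.1%), beside 42.3% of array genes, and TTTGAA, the core of the cell cycle homology region, in 6 (14.0%), beside 15.4%. TTTCGCGC and TTTGGCGC can overlap each other on opposite strands. Stretches of 90 bases, all before the start, show a pair of helicase subunits with the E2F letters (Mcm5 and Mcm6), a helicase subunit without them (Mcm2) and a clamp loader subunit with them that did not pass the threshold on either plate comparison (Rfc3). Capitals mark the E2F letters, CCAAT (read as ATTGG from the opposite strand) and TTTGAA. The Mcm5 stretch lies on the plus strand at chr8:75109317-75109406, and those of Mcm6 (chr1:128359736-128359825), Mcm2 (chr6:88898803-88898892) and Rfc3 (chr5:151651209-151651298) lie on the minus strand.
Mcm5: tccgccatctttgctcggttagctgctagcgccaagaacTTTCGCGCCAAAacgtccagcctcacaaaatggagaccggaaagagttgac
Mcm6: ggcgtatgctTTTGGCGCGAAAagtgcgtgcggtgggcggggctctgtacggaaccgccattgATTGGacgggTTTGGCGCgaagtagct
Mcm2: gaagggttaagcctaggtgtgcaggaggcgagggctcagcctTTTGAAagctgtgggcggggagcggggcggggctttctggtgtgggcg
Rfc3: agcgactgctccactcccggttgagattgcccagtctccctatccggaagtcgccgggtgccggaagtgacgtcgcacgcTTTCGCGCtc

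The genes with and without the E2F letters had similar medians. Of the 14 with the letters, 13 fell in R132C cells and 13 in vector cells, with median differences of -0.74 and -0.97. Of the 29 with a window and without the letters, 24 fell in R132C cells and 27 in vector cells, with medians of -0.83 and -0.99. Of the genes shown with the letters, Mcm5, Mcm6 and Rfc3 had plate differences of -0.76, -0.59 and -0.19 in R132C cells and -1.02, -0.97 and -0.24 in vector cells. Mcm2, shown without them, had -0.53 and -0.82. The windows of Rad52 and E2f1 held none of the 3 motifs. A match is a run of letters only, and no binding was measured.

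All 16 measured licensing and firing genes fell on uncoated plates, in R132C cells by a median of -0.74 and in vector cells by a median of -0.999. By the brightest probe sets Cdc7, the kinase that fires licensed origins, fell most. A dimmer probe set of Cdc7 gave smaller differences, -0.56 in R132C cells and -0.81 in vector cells. By its brightest probe set Cdc7 had these values. It stood at log2 7.67 and 7.28 in R132C uncoated cultures and 6.46 and 7.01 in vector uncoated cultures, against 8.91 and 8.90 in R132C collagen cultures and 9.10 and 7.98 in vector collagen cultures. The uncoated values lay below all collagen values, although the vector collagen cultures were more than 1 log2 unit apart. Cdc7 was 2.69-fold lower in R132C cells (log2 -1.43, SE 0.32, adjusted p = 0.00519) and 3.49-fold lower in vector cells (log2 -1.80, SE 0.32, adjusted p = 0.000846).

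The loading factors fell as well. Orc1, the largest subunit of the origin recognition complex and the one whose level cycles, stood at log2 6.87 and 6.71 in R132C uncoated cultures and 5.67 and 6.53 in vector uncoated cultures, against 8.02 and 8.12 in R132C collagen cultures and 8.05 and 7.48 in vector collagen cultures. Its differences were -1.28 (SE 0.24) in R132C cells and -1.66 (SE 0.24) in vector cells. By their brightest probe sets the subunits Orc2 and Orc6 fell by less, with differences of -0.53 and -0.57 in R132C cells and -0.52 and -0.66 in vector cells (SE 0.14 to 0.17). Dimmer probe sets of Orc2 gave -1.18 and -0.44 in R132C cells and -1.16 and -0.39 in vector cells. The size of the Orc2 fall thus depends on the probe set. Cdc6, which works with the complex to load the helicase, stood at log2 8.09 and 7.58 in R132C uncoated cultures and 6.85 and 7.39 in vector uncoated cultures, against 9.10 and 8.89 in R132C collagen cultures and 9.10 and 8.15 in vector collagen cultures. The groups did not overlap, and Cdc6 was 2.24-fold lower in R132C cells and 2.84-fold lower in vector cells. Cdt1, its partner in loading, had differences of -0.69 (SE 0.13) and -0.91 (SE 0.13), and Gmnn, the geminin that inhibits Cdt1 after S phase has begun, -0.81 (SE 0.17) and -1.27 (SE 0.17), in R132C and vector cells in turn. The loader and its inhibitor thus both fell.

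All 6 subunits of the helicase ring fell. The differences of Mcm2 to Mcm7 ran from -0.40 (Mcm7) to -0.76 (Mcm5) in R132C cells and from -0.66 (Mcm7) to -1.02 (Mcm5) in vector cells. Mcm5 stood at log2 8.95 and 8.49 in R132C uncoated cultures and 8.04 and 8.26 in vector uncoated cultures, against 9.60 and 9.36 in R132C collagen cultures and 9.47 and 8.87 in vector collagen cultures. Mcm7 stood at log2 12.69 and 12.51 in R132C uncoated cultures and 12.11 and 12.29 in vector uncoated cultures, against 13.03 and 12.96 in R132C collagen cultures and 13.01 and 12.72 in vector collagen cultures. For both subunits the R132C uncoated cultures lay above the vector uncoated cultures, and for Mcm5 the higher of them lay above vector collagen replicate 2.

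Of the factors that activate the loaded ring, Gins1, Cdc45 and Mcm10 had larger differences than the ring. Gins1, a subunit of the GINS complex, stood at log2 9.43 and 9.07 in R132C uncoated cultures and 8.56 and 8.78 in vector uncoated cultures, against 10.56 and 10.45 in R132C collagen cultures and 10.51 and 10.10 in vector collagen cultures. It was 2.38-fold lower in R132C cells (adjusted p = 0.000152) and 3.11-fold lower in vector cells (adjusted p = 1.18e-05). Gins4, a GINS subunit outside the listed genes, did not follow it. By limma it had -0.13 (adjusted p = 0.389) in R132C cells and -0.13 (adjusted p = 0.378) in vector cells, which did not pass. Cdc45, which rides with the ring and GINS, stood at log2 7.61 and 6.91 in R132C uncoated cultures and 6.78 and 6.73 in vector uncoated cultures, against 8.33 and 8.22 in R132C collagen cultures and 8.33 and 7.82 in vector collagen cultures. No uncoated value reached a collagen one, and its differences were -1.02 (SE 0.22) in R132C cells and -1.32 (SE 0.22) in vector cells. Mcm10, a scaffold for firing and for polymerase alpha, stood at log2 8.15 and 7.75 in R132C uncoated cultures and 7.51 and 7.37 in vector uncoated cultures, against 9.03 and 8.87 in R132C collagen cultures and 9.02 and 8.45 in vector collagen cultures. The plates were again apart, by -0.999 (SE 0.20) and -1.30 (SE 0.20). A second, dimmer probe set of Mcm10 gave differences of -0.17 and -0.34 that did not pass. The differences of activators and ring were not tested against each other.

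**Figure D3:**
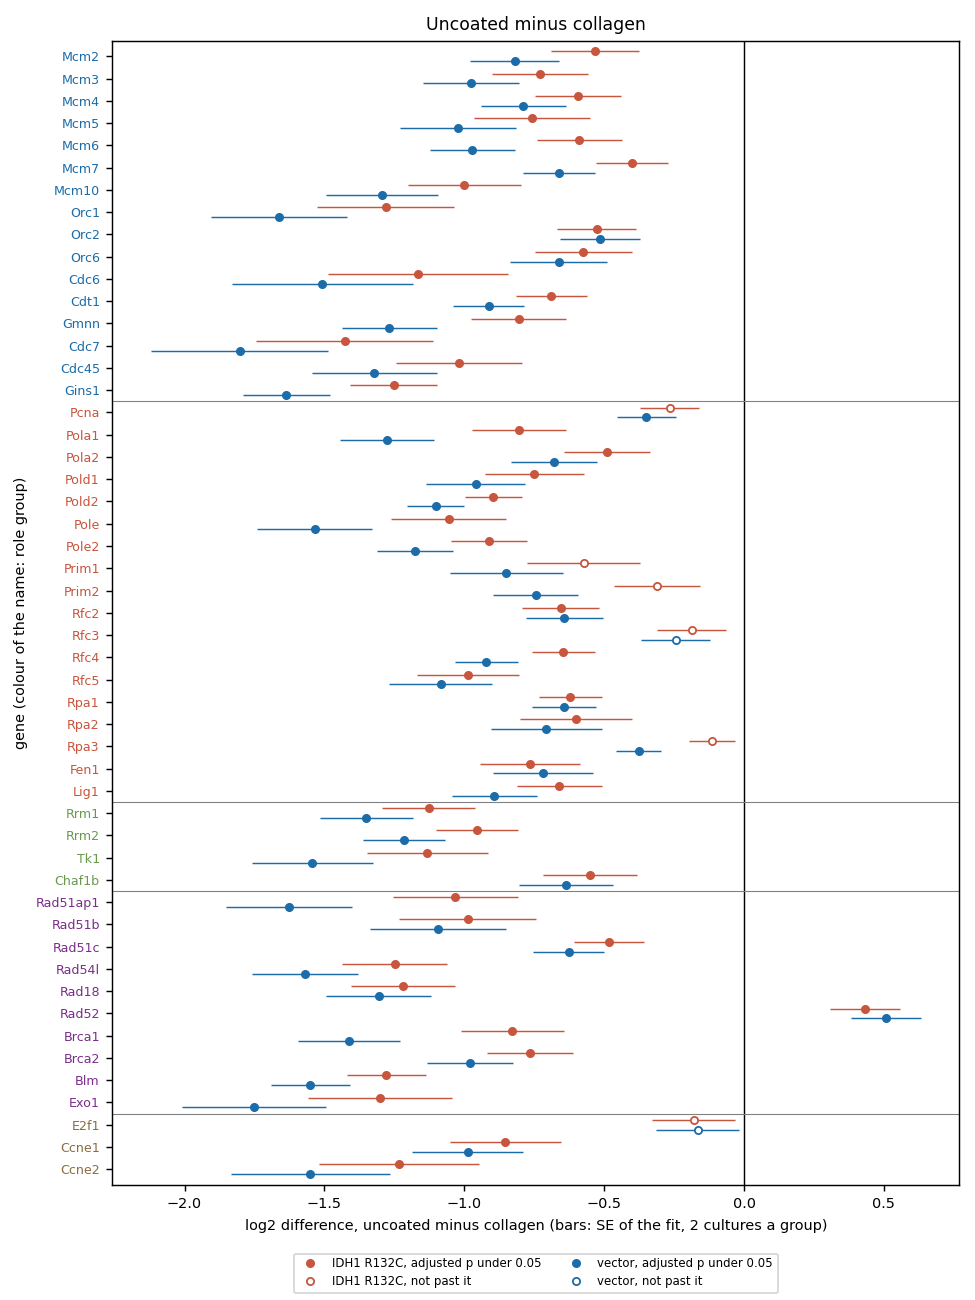
Log2 difference uncoated minus collagen of each replication and repair gene, in IDH1 R132C cells (red) and vector cells (blue), with bars of 1 SE from the limma fit to 2 cultures a group and filled points for an adjusted p under 0.05. Nearly all points lie left of 0, Rad52 lies right of it, and the red point is nearer 0 for most genes.

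Of 18 polymerase and fork genes, 13 fell in R132C cells and 17 in vector cells, with medians of -0.65 and -0.80. The largest difference of a single gene lay in the leading-strand polymerase epsilon. Its catalytic subunit Pole stood at log2 8.33 and 8.04 in R132C uncoated cultures and 7.43 and 7.69 in vector uncoated cultures, against 9.28 and 9.20 in R132C collagen cultures and 9.42 and 8.77 in vector collagen cultures. The uncoated cultures lay below all collagen ones, with a 2.08-fold lower level in R132C cells (log2 -1.06, SE 0.21) and a 2.90-fold lower level in vector cells (log2 -1.53, SE 0.21). Its accessory subunit Pole2 stood at log2 9.57 and 9.32 in R132C uncoated cultures and 8.72 and 9.02 in vector uncoated cultures, against 10.41 and 10.30 in R132C collagen cultures and 10.21 and 9.88 in vector collagen cultures. It too was lower in all uncoated cultures, with differences of -0.91 (SE 0.14) and -1.18 (SE 0.14). The subunits of polymerase epsilon outside the listed genes fell by less. Pole3 had -0.30 (SE 0.10) in R132C cells and -0.41 (SE 0.10) in vector cells. Pole4 had -0.45 (SE 0.11) and -0.47 (SE 0.11), and all of these passed the threshold.

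Polymerase alpha-primase, which lays down the starting primers, fell unevenly. The catalytic subunit Pola1 stood at log2 8.77 and 8.58 in R132C uncoated cultures and 7.81 and 8.08 in vector uncoated cultures, against 9.54 and 9.42 in R132C collagen cultures and 9.48 and 8.96 in vector collagen cultures. Its differences were -0.80 (SE 0.17) in R132C cells and -1.28 (SE 0.17) in vector cells, while those of the B subunit Pola2 were -0.49 (SE 0.15) and -0.68 (SE 0.15). The primase subunits Prim1 and Prim2 fell in vector cells, with -0.85 (SE 0.20) and -0.75 (SE 0.15). In R132C cells Prim1 had -0.57 (SE 0.20, adjusted p = 0.0544) and Prim2 -0.31 (SE 0.15, adjusted p = 0.165), which did not pass.

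Polymerase delta, which extends the lagging strand, fell in 3 of its 4 subunits. Its catalytic subunit Pold1 stood at log2 9.68 and 9.44 in R132C uncoated cultures and 9.15 and 9.30 in vector uncoated cultures, against 10.36 and 10.27 in R132C collagen cultures and 10.47 and 9.90 in vector collagen cultures. The subunit Pold2 stood at log2 10.04 and 9.78 in R132C uncoated cultures and 9.45 and 9.55 in vector uncoated cultures, against 10.83 and 10.79 in R132C collagen cultures and 10.64 and 10.56 in vector collagen cultures. No uncoated value of either reached a collagen one. The differences of Pold1 were -0.75 (SE 0.18) in R132C cells and -0.96 (SE 0.18) in vector cells, and those of Pold2 -0.90 (SE 0.10) and -1.10 (SE 0.10). Of the subunits outside the 53 genes, Pold3 had -0.61 (SE 0.13) and -0.71 (SE 0.13), both past the threshold. Pold4, the smallest subunit, rose by 0.53 (SE 0.16, adjusted p = 0.0287) in R132C cells and had 0.36 (SE 0.16, adjusted p = 0.120) in vector cells, which did not pass.

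The clamp, its loader and the strand-binding proteins had differences from near 0 to about that of the polymerases. Pcna, the sliding clamp, stood at log2 12.98 and 12.78 in R132C uncoated cultures and 12.59 and 12.69 in vector uncoated cultures, against 13.15 in both R132C collagen cultures and 13.16 and 12.83 in vector collagen cultures. The R132C uncoated cultures overlapped the vector collagen ones. Its difference of -0.27 (SE 0.105, adjusted p = 0.0836) in R132C cells did not pass, and that of -0.35 (SE 0.105, adjusted p = 0.0235) in vector cells did. Among the clamp loader subunits, Rfc5 stood at log2 9.95 and 9.39 in R132C uncoated cultures and 9.07 and 9.26 in vector uncoated cultures, against 10.68 and 10.64 in R132C collagen cultures and 10.46 and 10.04 in vector collagen cultures. Rfc5, Rfc4 and Rfc2 had differences of -0.99, -0.65 and -0.66 in R132C cells and -1.08, -0.92 and -0.64 in vector cells, all past the threshold. Rfc3, another subunit of the same loader, stood at log2 8.73 and 8.54 in R132C uncoated cultures and 8.58 and 8.47 in vector uncoated cultures, against 8.85 and 8.79 in R132C collagen cultures and 8.91 and 8.63 in vector collagen cultures. Its groups lay apart by small gaps, and its differences of -0.19 (SE 0.12, adjusted p = 0.308) and -0.24 (SE 0.12, adjusted p = 0.165) did not pass.

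Replication protein A coats unwound strands, and its large subunit Rpa1 had differences of -0.62 (SE 0.11) in R132C cells and -0.64 (SE 0.11) in vector cells. Its middle subunit Rpa2 had -0.60 and -0.71 (SE 0.20 each). The small subunit Rpa3 had -0.11 (SE 0.081, adjusted p = 0.354) in R132C cells, which did not pass, and -0.38 (SE 0.081) in vector cells, which did. The flap nuclease Fen1 had -0.77 (SE 0.18) and -0.72 (SE 0.18), and the ligase Lig1 -0.66 (SE 0.15) and -0.89 (SE 0.15), in R132C and vector cells in turn. Fen1, Rfc2 and Orc2 were among the few genes whose difference was not nearer 0 in R132C cells.

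All 4 measured genes of nucleotide supply and chromatin assembly fell, by medians of -1.04 in R132C cells and -1.28 in vector cells. Tk1, the thymidine kinase of S phase, stood at log2 10.02 and 9.46 in R132C uncoated cultures and 8.87 and 9.09 in vector uncoated cultures, against 10.95 and 10.80 in R132C collagen cultures and 10.79 and 10.26 in vector collagen cultures. No uncoated value reached a collagen one, and Tk1 was 2.19-fold lower in R132C cells and 2.92-fold lower in vector cells. Rrm1, the large subunit of the ribonucleotide reductase that makes deoxynucleotides, stood at log2 10.81 and 10.40 in R132C uncoated cultures and 9.94 and 10.28 in vector uncoated cultures, against 11.77 and 11.70 in R132C collagen cultures and 11.67 and 11.25 in vector collagen cultures. Rrm2, its small subunit, stood at log2 12.04 and 11.60 in R132C uncoated cultures and 11.23 and 11.46 in vector uncoated cultures, against 12.82 and 12.73 in R132C collagen cultures and 12.74 and 12.37 in vector collagen cultures. Rrm1 and Rrm2 were 2.18-fold and 1.94-fold lower in R132C cells and 2.55-fold and 2.32-fold lower in vector cells. Chaf1b, a subunit of the assembly factor that places histones on new DNA, stood at log2 8.38 and 8.16 in R132C uncoated cultures and 7.80 and 8.03 in vector uncoated cultures, against 8.85 and 8.79 in R132C collagen cultures and 8.74 and 8.37 in vector collagen cultures. The higher R132C uncoated culture overlapped the lower vector collagen one, and the differences were -0.55 (SE 0.17) and -0.64 (SE 0.17).

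Of 10 repair genes 9 fell in both kinds of cell, by medians over all 10 of -1.01 in R132C cells and -1.36 in vector cells. Exo1, the nuclease that resects broken ends, stood at log2 7.88 and 7.11 in R132C uncoated cultures and 6.75 and 6.90 in vector uncoated cultures, against 8.85 and 8.75 in R132C collagen cultures and 8.94 and 8.22 in vector collagen cultures. The uncoated values all lay lower, and Exo1 was 2.46-fold lower in R132C cells (SE 0.26 on the log2 scale) and 3.37-fold lower in vector cells (SE 0.26). A dimmer probe set of Exo1, at a mean of log2 7.06, gave smaller differences, -0.79 in R132C cells and -0.79 in vector cells. The size of the Exo1 fall thus depends on the probe set. Blm, the helicase that works in resection and dissolves crossed strands, stood at log2 7.83 and 7.46 in R132C uncoated cultures and 7.18 and 7.36 in vector uncoated cultures, against 8.93 and 8.91 in R132C collagen cultures and 8.96 and 8.68 in vector collagen cultures. It was 2.43-fold lower in R132C cells (adjusted p = 7.53e-05) and 2.93-fold lower in vector cells (adjusted p = 9.01e-06).

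Genes of strand pairing fell strongly. Rad51ap1, which promotes the pairing of strands, stood at log2 8.14 and 7.52 in R132C uncoated cultures and 6.88 and 7.13 in vector uncoated cultures, against 8.92 and 8.81 in R132C collagen cultures and 8.90 and 8.37 in vector collagen cultures. Its differences were -1.03 (SE 0.22) in R132C cells and -1.63 (SE 0.22) in vector cells, and its 3 further probe sets were also lower on uncoated plates. The motor protein Rad54l stood at log2 7.93 and 7.60 in R132C uncoated cultures and 7.28 and 7.40 in vector uncoated cultures, against 9.05 and 8.98 in R132C collagen cultures and 9.19 and 8.63 in vector collagen cultures. It lay lower in all uncoated cultures, by -1.25 (SE 0.19) and -1.57 (SE 0.19).

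Rad18, the ubiquitin ligase that marks Pcna at stalled forks, stood at log2 6.91 and 6.55 in R132C uncoated cultures and 6.10 and 6.47 in vector uncoated cultures, against 8.06 and 7.84 in R132C collagen cultures and 7.68 and 7.51 in vector collagen cultures. Its differences were close to each other in both kinds of cell, -1.22 (SE 0.19) and -1.31 (SE 0.19). Brca1, which acts in the resection of broken ends, stood at log2 8.61 and 8.34 in R132C uncoated cultures and 7.64 and 7.98 in vector uncoated cultures, against 9.37 and 9.23 in R132C collagen cultures and 9.47 and 8.97 in vector collagen cultures. It was 1.78-fold lower in R132C cells and 2.66-fold lower in vector cells, and Brca2, which acts after resection in the same repair, 1.70-fold and 1.97-fold lower. Rad51c, another gene of homologous repair, had -0.48 (SE 0.13) and -0.63 (SE 0.13).

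Rad52 was the exception. Its protein binds and anneals strands, and in mammals its loss alone has mild effects. It stood at log2 6.81 and 7.10 in R132C uncoated cultures and 7.18 and 7.21 in vector uncoated cultures, against 6.48 and 6.58 in R132C collagen cultures and 6.79 and 6.59 in vector collagen cultures. It rose by 0.43 (SE 0.13, adjusted p = 0.0217) in R132C cells and by 0.51 (SE 0.13, adjusted p = 0.00779) in vector cells. The rise rests on this probe set: the dimmer probe set of Rad52 gave -0.011 (SE 0.24) and -0.20 (SE 0.24), neither past the threshold. Over all genes here, 41 of 42 further probe sets lay below 0 in each plate comparison.

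Rad51b, also a gene of homologous repair, fell on uncoated plates but ordered the groups differently from its neighbours. It stood at log2 6.004 and 5.978 in R132C uncoated cultures and 6.39 and 6.36 in vector uncoated cultures, against 6.83 and 7.13 with R132C, 6.89 and 7.46 with R172K, 7.32 and 7.72 with wild-type IDH1, 7.25 and 7.63 with wild-type IDH2 and 7.10 and 7.84 with vector on collagen. On either plate the R132C cultures had the lowest mean. The plate differences were -0.99 (SE 0.24) in R132C cells and -1.09 (SE 0.24) in vector cells. Its dimmer probe set, at a mean of log2 4.70, gave -0.34 and -0.36 and did not pass.

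The G1/S regulators split. Cyclin E2 (Ccne2), an activator of Cdk2 at S phase entry, stood at log2 9.18 and 8.67 in R132C uncoated cultures and 8.05 and 8.49 in vector uncoated cultures, against 10.22 and 10.11 in R132C collagen cultures and 10.27 and 9.37 in vector collagen cultures. It was 2.35-fold lower in R132C cells and 2.93-fold lower in vector cells, with no overlap of the plates. Its relative cyclin E1 (Ccne1) stood at log2 7.58 and 7.17 in R132C uncoated cultures and 6.86 and 7.04 in vector uncoated cultures, against 8.26 and 8.20 in R132C collagen cultures and 8.24 and 7.64 in vector collagen cultures, and was 1.81-fold lower in R132C cells and 1.98-fold lower in vector cells. E2f1, an activating E2F factor, stood at log2 7.57 and 7.44 in R132C uncoated cultures and 7.21 and 7.25 in vector uncoated cultures, against 7.79 and 7.58 in R132C collagen cultures and 7.54 and 7.26 in vector collagen cultures. Within each kind of cell the plates nearly touched, and the R132C uncoated cultures overlapped the vector collagen ones. The E2f1 differences of -0.18 (SE 0.15, adjusted p = 0.437) and -0.17 (SE 0.15, adjusted p = 0.476) did not pass. A second probe set of E2f1 gave -0.22 and -0.18.

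**Figure D4:**
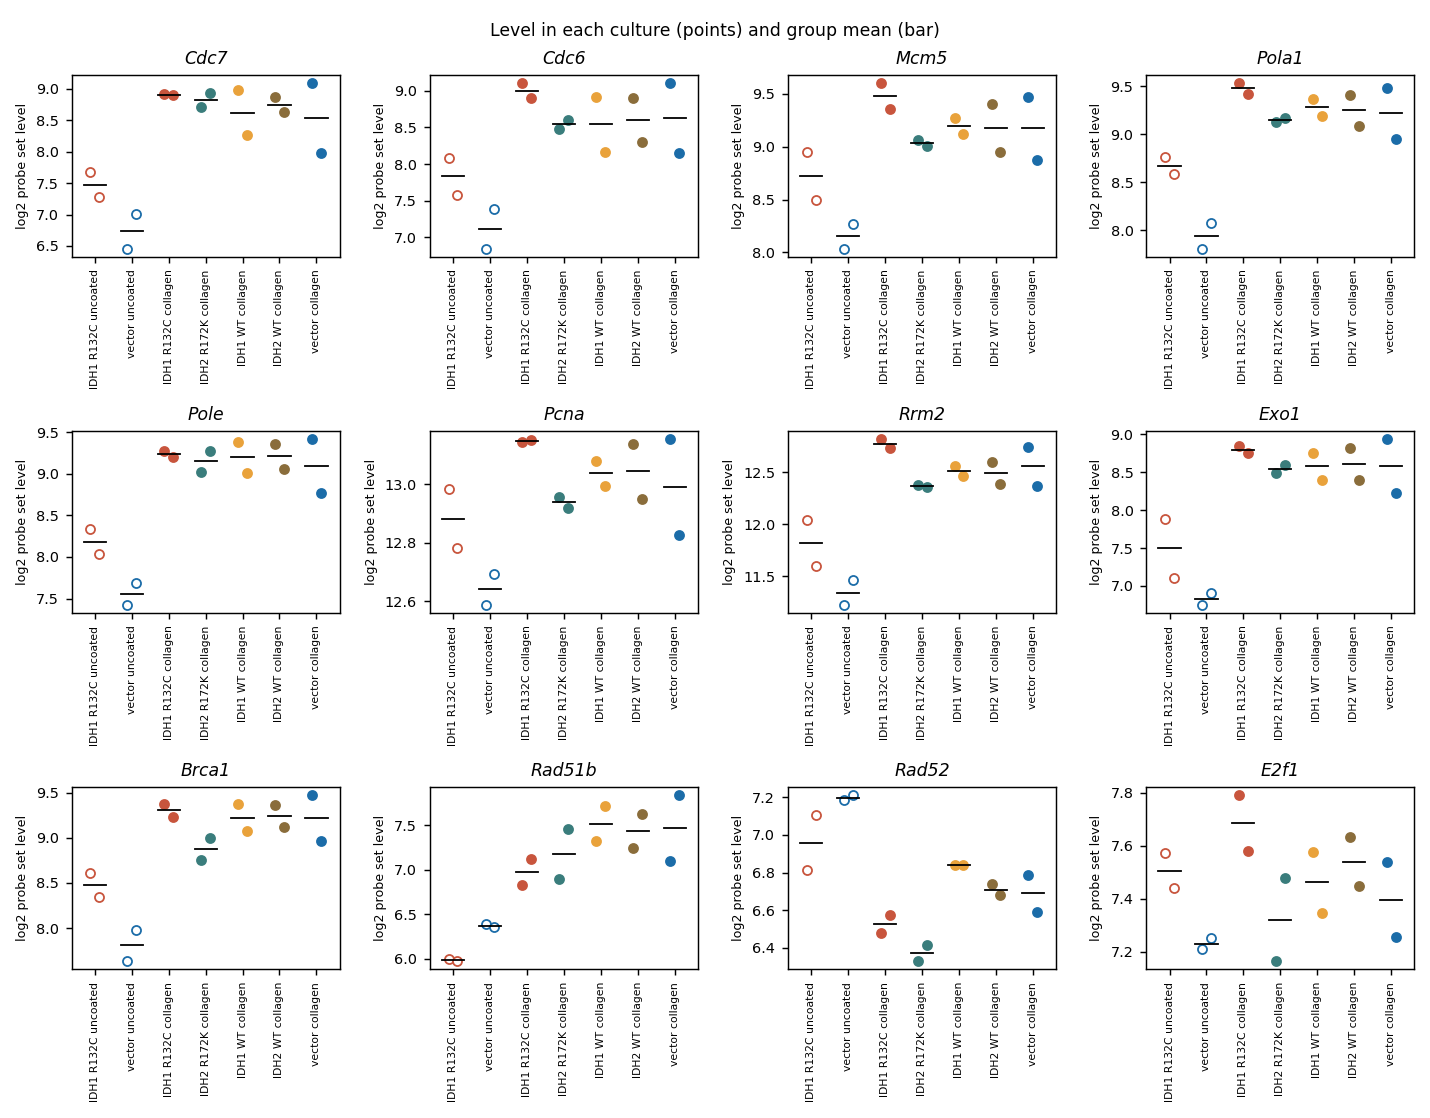
Log2 level of 12 genes in each culture (points, open for uncoated and filled for collagen) with the group mean as a bar, in 7 groups of 2 cultures and on an axis of its own for each gene. The open points lie below the filled ones for most genes, above most of them for Rad52, and close to them for E2f1.

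Leaving out single cultures changed some of these calls. In R132C cells 19 of the 45 calls held in every such run: Orc1, Cdt1, Mcm10, Gins1, Pola1, Pole, Pole2, Pold2, Rfc4, Rfc5, Rpa1, Rrm1, Rrm2, Tk1, Rad54l, Rad18, Brca2, Blm and Exo1. The R132C count of 45 came to 25 without R132C collagen replicate 1 and to 19 without R132C uncoated replicate 2, which had the lower levels of the pair. The Rad52 call was among those lost in both. In vector cells 40 of the 49 calls held whichever array was left out. Without vector collagen replicate 1, Chaf1b, Fen1, Orc2, Orc6, Pcna, Pola2, Prim1 and Rpa2 lost their calls, without vector uncoated replicate 1 the same genes except Orc6, without vector uncoated replicate 2 Orc6 and Rpa2, and without vector collagen replicate 2 Rad52. The directions of all these genes stayed the same in these runs.

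Other genes of the same processes, 85 listed by role, were counted in the same fit. Of the 68 measured, 39 fell and 4 rose in R132C cells and 44 fell and 1 rose in vector cells, with medians of -0.47 and -0.52. Among licensing and fork genes, Dbf4, the activating partner of Cdc7, had -1.24 and -1.57, Topbp1, which helps Cdc45 join, -0.83 and -1.04, and the fork scaffold Wdhd1 -1.01 and -1.34, in R132C and vector cells in turn. All 11 of the nucleotide and chromatin genes fell in vector cells and 7 in R132C cells, among them the remodeller Hells (-1.07 and -1.33) and the maintenance methylation factor Uhrf1 (-0.78 and -1.26). Of 12 further repair and checkpoint genes, 8 and 9 fell, with the checkpoint kinase Chek1 at -1.03 and -1.34 and the Brca1 partner Bard1 at -1.08 and -1.19.

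Of 25 further G1/S regulators, 10 fell and 3 rose in R132C cells and 11 fell and 1 rose in vector cells. The repressor E2f8 had -1.28 and -1.58, the ubiquitin ligase subunit Skp2 -1.09 and -1.41, cyclin A2 (Ccna2) -1.05 and -1.50 and the pocket protein Rbl1 -0.79 and -1.29, in R132C and vector cells in turn. Rbl2, the pocket protein known from resting cells, went the other way. It stood at log2 9.06 and 9.13 in R132C uncoated cultures and 9.32 and 9.24 in vector uncoated cultures, against 8.43 and 8.33 in R132C collagen cultures and 8.37 and 8.39 in vector collagen cultures, rising by 0.71 and 0.90. The inhibitors Cdkn1b and Cdkn2a rose in R132C cells, by 0.29 and 0.45, and had 0.19 and 0.30 in vector cells, which did not pass. Other inhibitors of the same list went down: Cdkn2d had -0.71 in R132C cells, which passed, and -0.55 in vector cells (adjusted p = 0.0689), which did not, and Cdkn2c had -0.34 in R132C cells (adjusted p = 0.0535), which did not pass, and -0.48 in vector cells, which did. Cdk4, cyclin D3 (Ccnd3) and the inhibitor Cdkn1a, with differences of 0.20, -0.083 and -0.19 in R132C cells and 0.10, 0.060 and -0.41 in vector cells, did not pass in either.

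Genes of mitosis moved the same way, with all 11 measured lower on uncoated plates and medians of -0.99 in R132C cells and -1.48 in vector cells. Their summed intensity was 14065 to 18334 in R132C uncoated cultures and 8530 to 10953 in vector uncoated cultures, against 31133 to 31422 in R132C collagen cultures and 23578 to 29441 in vector collagen cultures. Of the mesenchymal markers, Vim had group means of log2 13.82 to 14.11 and Col1a1 of 4.79 to 5.49. The 7 blood cell markers summed to 219 to 269 intensity units in R132C uncoated cultures and 268 to 314 in vector uncoated cultures, against 231 to 260 in R132C collagen cultures and 224 to 258 in vector collagen cultures. Of these only Ptprc passed, with rises of 1.19 and 1.73. The 7 endothelial markers summed to between 144 and 178 units in all 7 groups and none passed between the plates. The 9 mesenchymal markers, mostly Vim, summed to 15146 to 15481 and 14215 to 15270 in the uncoated groups, against 17485 to 17559 and 17156 to 17252 on collagen, and only Col1a1 passed, in vector cells. Of 12 hepatoblast markers Epcam, Sox9 and Cdh1 rose in both kinds of cell, Afp fell in both and Krt19 fell in vector cells, and they summed to 68361 to 70327 and 68121 to 68746 in the uncoated groups, against 66469 to 66974 and 68492 to 69271 on collagen. Any part of these markers in the fall of replication genes was not tested.

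The next question was whether the fall differed between R132C and vector cells. R132C minus vector, the difference of the plate responses was above 0 for 46 of the 51 genes, with a median of 0.26 beside -0.0038 over all genes. No single gene passed by limma (0 of 51, lowest adjusted p = 0.831, 2 with an unadjusted p under 0.05), where 0.25% of all genes were called lower and 0% higher. The 2 genes were Brca1, with 0.58 (SE 0.26, adjusted p = 0.848), and Rpa3, with 0.26 (SE 0.11, adjusted p = 0.831). Dimmer probe sets of Brca1 had plate differences of -0.76, -0.53 and 0.039 in R132C cells. In vector cells the same probe sets had -0.87, -0.83 and -0.043. The role medians were 0.29 for licensing, 0.21 for polymerases and fork, 0.24 for nucleotides and chromatin, 0.24 for repair and 0.14 for G1/S control.

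On uncoated plates themselves, R132C cells had higher levels of most of these genes than vector cells. Of the 51 genes 49 lay above 0, with a median difference of 0.43 beside -0.014 over all genes, and 34 had an unadjusted p under 0.05. Past the threshold by limma with Benjamini-Hochberg adjustment were 2, Pola1 and Pole2, both higher, against 0.896% of all genes called higher, 1.49% called lower and 2.39% called in all. Pola1 differed by 0.73 (SE 0.17, adjusted p = 0.0435), with log2 8.77 and 8.58 in R132C cultures and 7.81 and 8.08 in vector cultures. Pole2 differed by 0.57 (SE 0.14, adjusted p = 0.0476), with log2 9.57 and 9.32 in R132C cultures and 8.72 and 9.02 in vector cultures. Both cultures of R132C lay above both of vector for 46 of the 51 genes, where 21.3% of all genes did.

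Which genes passed on uncoated plates depended on single arrays. More passed, all higher, with the replicate number as a block in the fit, as given in the closing section. The count of 2 came to 0 without vector uncoated replicate 1, R132C uncoated replicate 1 or any 1 culture of the wild-type IDH1, R132C or R172K collagen groups, and to 1, Pola1, without either wild-type IDH2 culture. It came to 3 and 4 without vector collagen replicate 1 or 2, where Gmnn and, in the second case, Brca1 were added. Without vector uncoated replicate 2 it stayed at 2, with Orc1 in place of Pola1. Without R132C uncoated replicate 2 it came to 8 (Gmnn, Gins1, Pold2, Pole2, Rfc5, Rrm2, Tk1 and Rad51ap1). Among the larger differences that did not pass were Rad51ap1 with 0.83 (SE 0.22, adjusted p = 0.0850), Tk1 with 0.76 (SE 0.22, adjusted p = 0.0984), Cdc7 with 0.74 (SE 0.32, adjusted p = 0.314), Cdc6 with 0.71 (SE 0.32, adjusted p = 0.363) and Brca1 with 0.67 (SE 0.18, adjusted p = 0.0887). Dimmer probe sets of Brca1 gave 0.19, 0.55 and 0.070.

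By role, the medians on uncoated plates were 0.51 for licensing, 0.37 for polymerases and fork, 0.49 for nucleotides and chromatin, 0.44 for repair and 0.42 for G1/S control. Rad51b and Rad52 lay the other way, with -0.38 (SE 0.24, adjusted p = 0.586) and -0.24 (SE 0.13, adjusted p = 0.468) and no overlap between the groups, as 25.7% of all genes had in that direction. Of the 68 other replication genes 4 passed, all higher: Dbf4 with 0.63, cyclin D1 (Ccnd1) with 0.49, cyclin D2 (Ccnd2) with 0.71 and cyclin A2 with 0.76. Ccnd2, a partner of Cdk4 and Cdk6 in G1, stood at log2 12.79 and 12.68 in R132C uncoated cultures and at 12.08 and 11.98 in vector uncoated cultures. Of the 11 mitosis genes 6 passed, all higher, with a median of 0.73. The same cultures differed in hepatoblast markers, with Afp higher by 1.45 and Epcam lower by 1.49 in R132C cells and the other 10 not past the threshold, and the part of this in the replication genes was not tested.

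**Figure D5:**
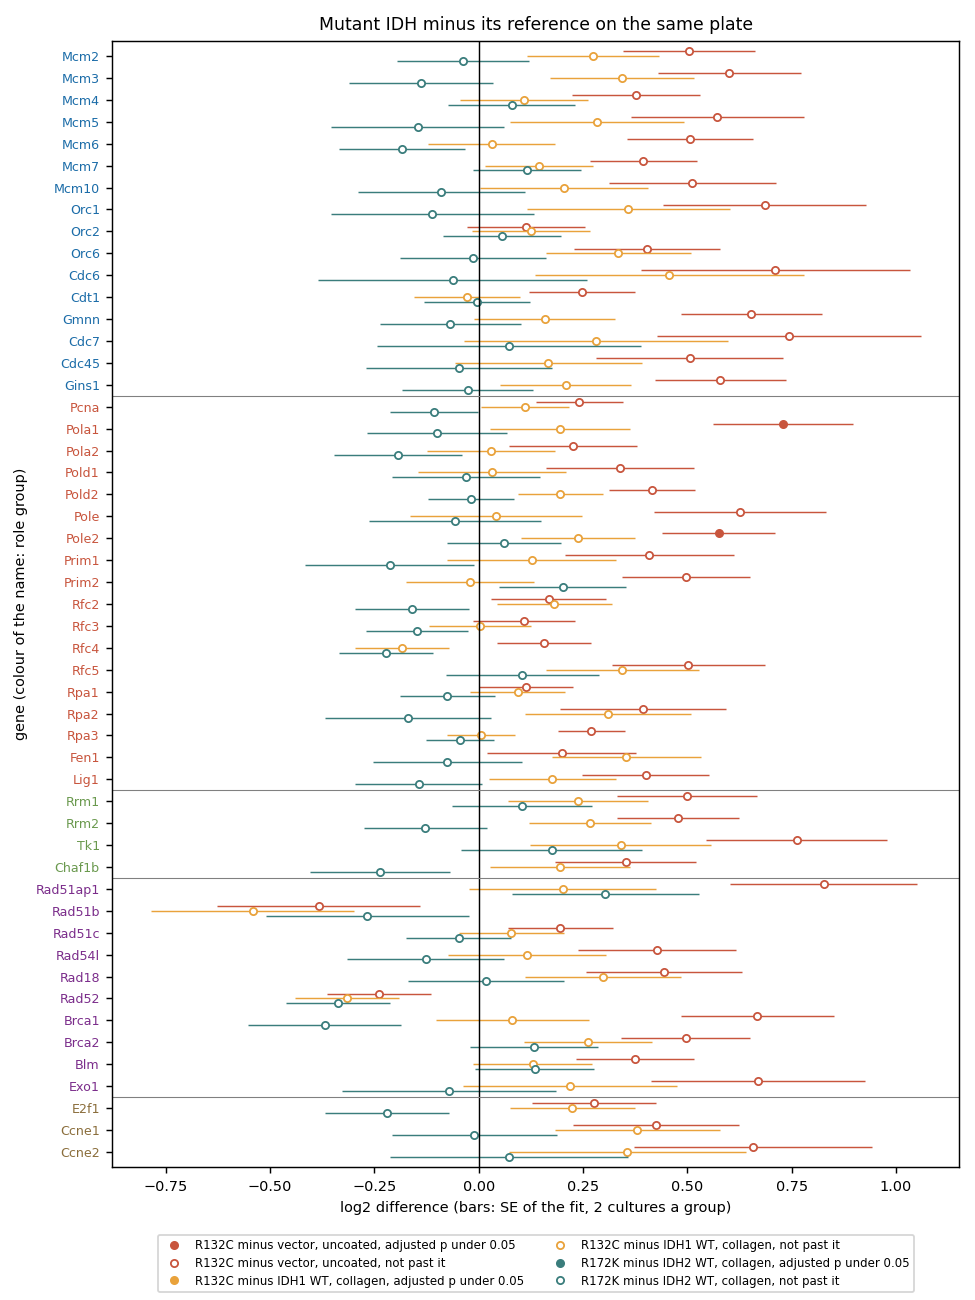
Log2 difference of each replication and repair gene between R132C and vector cells on uncoated plates (red), R132C and wild-type IDH1 on collagen (orange) and R172K and wild-type IDH2 on collagen (green), with bars of 1 SE from the limma fit to 2 cultures a group. The filled points, Pola1 and Pole2 in red, are those with an adjusted p under 0.05, and the green points scatter around 0.

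On collagen no member passed between the forms of IDH. For R132C against wild-type IDH1, 46 of 51 genes lay above 0 with a median of 0.19, beside 0.0085 over all genes, and limma called 0 of 51 (2 with an unadjusted p under 0.05, lowest adjusted p = 0.566), where 0.0484% of all genes were called higher and 0% lower. The licensing genes had a median of 0.21, the polymerase and fork genes 0.12 and the repair genes 0.12. Cdc6 had the highest difference, 0.46 (SE 0.32), with log2 9.10 and 8.89 in R132C cultures and 8.91 and 8.17 in wild-type IDH1 cultures, which overlapped. Cyclin E1 had 0.38 (SE 0.20), Fen1 0.35 (SE 0.18), Mcm3 0.34 (SE 0.17) and Tk1 0.34 (SE 0.22). For 30 of the 51 genes both R132C cultures lay above both wild-type IDH1 cultures, where 22.1% of all genes did, and for 3 both lay below, where 20.4% did.

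For R172K against wild-type IDH2, 14 of 51 genes lay above 0, with a median of -0.063 beside -0.046 over all genes, so the genes lay close to the shift of the whole array. Limma called 0 of 51 (1 with an unadjusted p under 0.05, lowest adjusted p = 0.190), where 1.14% of all genes were called lower and 0.597% higher (141 and 74 genes, or 93 and 99 with the arrays centred on their medians, which moved R172K replicate 1 by 0.11). These 215 calls came to 2332 without R172K replicate 2, 86 without R172K replicate 1, 36 and 14 without wild-type IDH2 replicate 1 or 2, and 109 without either R132C collagen culture, so the share of all genes called is itself unsteady. For 8 genes both R172K cultures lay below both wild-type IDH2 cultures, where 26% of all genes did, and for 0 above, where 14.5% did. Brca1 had -0.37 (SE 0.18, adjusted p = 0.329), with log2 8.75 and 8.99 in R172K cultures and 9.36 and 9.12 in wild-type IDH2 cultures, and Rad51ap1 had 0.30 (SE 0.22, adjusted p = 0.518). The effect of R172K minus that of R132C was below 0 for 46 of 51 genes, with a median of -0.22 beside -0.051 over all genes, and limma called 0 of 51, with 0 at an unadjusted p under 0.05 and 0% of all genes called in either direction.

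Averaged over both mutants, 38 of 51 genes lay above 0 with a median of 0.070, and limma called 0 of 51 (3 with an unadjusted p under 0.05), where 2.44% of all genes were called lower, 1.18% higher and 3.61% in all (302 lower and 146 higher, or 238 and 189 with centred arrays). Without R172K replicate 2 the 448 calls came to 1803, and leaving out other cultures brought them as low as 109, without wild-type IDH2 replicate 2. The lowest adjusted p belonged to Rad52, with -0.33 (SE 0.088, adjusted p = 0.0627). It stood at log2 6.48 and 6.58 in R132C cultures and 6.33 and 6.42 in R172K cultures, against 6.84 and 6.84 in wild-type IDH1 cultures and 6.74 and 6.68 in wild-type IDH2 cultures. All 4 mutant cultures lay below all 4 wild-type cultures, a separation whose share over all genes was not counted. In the vector collagen cultures Rad52 stood at log2 6.79 and 6.59, the lower of them close to R132C. Against vector, Rad52 had -0.16 with R132C and -0.32 with R172K. With wild-type IDH1 and IDH2 Rad52 had 0.15 and 0.020, and none of these passed. Its dimmer probe set had -0.48 (SE 0.17, adjusted p = 0.189 over all probe sets), in the same direction. Rad52 passed without R172K replicate 2, and also with dim genes left out or with no intensity trend. The other members with an unadjusted p under 0.05 were Rfc4 with -0.20 (SE 0.080, adjusted p = 0.20) and Rad51b with -0.40 (SE 0.17, adjusted p = 0.247).

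Against vector cells on collagen, limma called 0 of 51 genes for each of R132C, R172K, wild-type IDH1 and wild-type IDH2, with 2, 1, 0 and 0 at an unadjusted p under 0.05. These comparisons share the vector cultures. All genes were called at 0% for R132C, wild-type IDH1 and wild-type IDH2, and at 3.12% lower, 1.15% higher and 4.27% in all for R172K (387 lower and 142 higher, or 276 and 205 with centred arrays). These 529 calls came to 2596 without R172K replicate 2 and to 70 without vector collagen replicate 2. Both R132C cultures lay above both vector cultures for 12 genes, where 17.7% of all genes did, and below for 2, where 21.6% did. The medians were 0.20 for R132C, -0.052 for R172K, 0.012 for wild-type IDH1 and 0.024 for wild-type IDH2. Of the other replication genes, Ccnd2 was higher with R172K than with wild-type IDH2, by 0.39 (SE 0.089, adjusted p = 0.0483), at log2 13.63 and 13.38 against 13.04 and 13.18. The inhibitor Cdkn2a was lower with both mutants together than with both wild types, by -0.41 (SE 0.085, adjusted p = 0.0212), at log2 9.59 and 9.50 with R132C and 9.24 and 9.39 with R172K, against 9.84 and 9.93 with wild-type IDH1 and 9.73 and 9.86 with wild-type IDH2. Against vector cells R172K cells differed in the same 2 genes, by 0.43 in Ccnd2 and -0.57 in Cdkn2a. By limma no other gene of the 68 passed in these comparisons on collagen.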

How the data were processed

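The authors deposited 1 probe set intensity per array, summarised by RMA per the submitters' processing notes, with no version or settings. The deposited intensity values ran from 5.84 to 26770 and are on a linear scale, so log2 was taken here. The platform table gave 1 gene symbol to 20380 of 22690 probe sets, several to 691, and none to 1555 beside 64 controls. Each of 12393 genes was represented by its brightest single-symbol probe set. With limma 3.58.1 under R 4.3.3, the 7 group means were fitted to the 14 arrays jointly (lmFit, eBayes with an intensity trend, 7 residual and 5.67 prior degrees of freedom), 12 comparisons were drawn, and p-values were adjusted by Benjamini-Hochberg over all genes, with calls under 0.05. Replicates are separate cultures, per the series text. The fit was tested on simulated data. The members and lists were chosen with earlier results of these data known. Any member may be named, with culture values for up to 6 of the largest falls per role, the exceptions and the genes called between IDH forms. From the other lists up to 4 called genes per comparison may be named, or up to 2 of the highest level. Named beyond this rule, after their values were seen, were Gins4, Pole3, Pole4, Pold3, Pold4, Rbl2, Cdk4, Ccnd3, Cdkn1a, Cdkn1b, Cdkn2c, Cdkn2d, Cdkn2a in the plate comparisons, Krt19, Dlk1 and Prox1, and culture values of Mcm5, Mcm7, Pcna and Rad51b. Same-numbered cultures did not deviate together throughout (correlations of replicate differences from -0.041 to 0.487, over 0.1 in 13 of 21 pairs of groups). The correlations ran from 0.11 to 0.49 among the collagen groups and came to 0.26 between the uncoated groups. Across plates they ran from -0.041 to 0.22. In the main fit the numbers were not treated as pairs. Alternatives were other probe set choices, a filter on dim genes, cyclic loess, median centring, no trend, only the compared groups, array weights, leaving out single arrays, and the replicate number as a block.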

Additional observations from a re-analysis of the deposited data

How the results depend on the processing

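Between plates, members called came to 44 to 47 in R132C cells and 48 or 49 in vector cells under cyclic loess, median centring, array weights and the replicate block, as against 45 and 49. Leaving out an array in turn gave 19 to 47 in R132C cells and 41 to 49 in vector cells. Rad52 changed sign with its second probe set, to -0.011 in R132C cells and -0.20 in vector cells. For R132C against vector on uncoated plates, the 2 calls came to 0 with second probe sets, no trend or only the compared arrays, to 1 with the mean of probe sets, dim genes left out, cyclic loess or median centring, to 4 with array weights, to 12 with the replicate block, all higher, and from 0 to 8 with an array left out. For both mutants against both wild types, Rad52 passed, as 1 call, with dim genes left out, with no trend, with the replicate block and without R172K replicate 2. With the replicate block the other counts of members were 47 and 49 for the plates in R132C and vector cells and 0 elsewhere. Taking every probe set by itself, 5244 probe sets were called for the plates in R132C cells and 5848 in vector cells. These are out of the 22690 probe sets less 64 controls, with several for some genes. The main fit called 3215 and 3628 of 12393 genes, so these counts cannot be set side by side. The counts that follow are over all genes. The block gave 505 in place of 296 for R132C against vector on uncoated plates, 54 in place of 31 for the difference of plate responses, 49 in place of 6 for R132C and 480 in place of 215 for R172K against their wild types, 792 in place of 448 for both and 904 in place of 529 for R172K against vector. Only the compared arrays gave 140, 41 and 45 in place of 296, 215 and 529, and array weights 9, 209 and 40 in place of 215, 448 and 529. With an array left out, calls over all genes ran from 1660 to 3916 for the plates in R132C cells, 2293 to 4251 in vector cells, 71 to 386 for R132C against vector on uncoated plates, 14 to 2332 for R172K against wild-type IDH2, 109 to 1803 for both mutants and 70 to 2596 for R172K against vector. Background correction was not run, since the values are already summarised. The cause of these changes was not tested. Brightness over background limits the dimmer probe set of Rad51b, at a mean of log2 4.70. The dimmer probe set of Rad52, at a mean of log2 6.29, lay above the arrays' lower quartile and not far below the brighter one at 6.76. Having 2 arrays a group limits all values.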
